A study of Mus musculus with 8 samples.

Results

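The Cyp4 genes encode microsomal cytochrome P450 enzymes that put a hydroxyl group on the end carbon of fatty acids, and Cyp2e1 encodes a P450 that oxidises ethanol, acetone and the carbon next to the end of fatty acids. A set of 10 such mouse genes was followed by name in bulk messenger RNA sequencing of kidney: Cyp4a10, Cyp4a12a, Cyp4a12b, Cyp4a14, Cyp4a31, Cyp4b1, Cyp4f13, Cyp4f14, Cyp4v3 and Cyp2e1, which are 10 of the 49315 gene IDs counted. The study compared 4 kidneys labelled control with 4 in which Kdm1a, which encodes the lysine demethylase LSD1, was conditionally deleted according to the labels. The extraction protocol calls the controls wild type. The recombinase driver, the cells in which the gene was deleted, the strain, and the age and sex of the animals are not given in the sources used here. Nothing in the labels says that the 4 samples of a group are separate animals, so p values measure the spread between these samples.

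In mouse kidney, enzymes of the Cyp4a group sit mainly in the proximal tubule, the segment that reabsorbs most of the filtrate and burns fatty acids for energy. They convert arachidonic acid to 20-hydroxyeicosatetraenoic acid (20-HETE), a lipid that acts on vessel tone and on tubular salt transport. Several are classical targets of the fatty acid sensor PPAR alpha. In adult mice some differ by sex, with Cyp4a12a and Cyp4b1 raised by androgens in the kidney.

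Library totals ranged from 19524945 to 28544511 counts, so 1 count stood for 0.0350 to 0.0512 CPM, the count scaled to the total of its library. Kdm1a transcripts were at 110 to 120 CPM in the controls and 90.9 to 95.3 CPM in the knockouts (log2 fold change −0.27, SE 0.05, edgeR adjusted p 0.0194), and the count covers exons inside and outside any deleted stretch. Transcripts of 4 Y-linked genes were present in 5 libraries, control replicates 1, 3 and 4 and knockout replicates 2 and 3, while the other 3 had no more than 2.63 CPM. On the first principal component, control replicate 2 (9.56) and knockout replicate 3 (9.71) lay next to each other, apart from the other controls (−78.7 to −52.4) and the other knockouts (48.3 to 68.4). Summed adrenal markers reached 2770 CPM in knockout replicate 1, 383 CPM in replicate 4 of that group, 154 CPM in control replicate 4 and 17.7 to 24.7 CPM in the other 5 libraries. Kidney identity was visible in every library: 20 proximal tubule markers summed to 753 to 3150 CPM in controls and to 96.8 to 507 CPM in knockouts, and 19 of the 19 tested were called lower.

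The Cyp4a genes and Cyp4b1 lie side by side on chromosome 4, in 349 kb from 115299046 to 115647723 (GRCm38), between 20.9 and 21.2 Mb from Kdm1a on the same chromosome. Of the 14 annotated genes in that span, 4 had enough counts to be tested: Cyp4a14, Cyp4a10, Cyp4a31 and Cyp4b1. The Cyp4a genes are young duplicates, and this bears on how reads can be assigned. Their first 60 coding bases, in 1 exon each, are shown 5′ to 3′ from the GENCODE M21 transcripts, with capitals where a base differs from Cyp4a10.
Cyp4a10: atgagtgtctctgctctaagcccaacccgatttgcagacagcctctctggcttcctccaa
Cyp4a31: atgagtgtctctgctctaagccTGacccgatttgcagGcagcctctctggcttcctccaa
Cyp4a14: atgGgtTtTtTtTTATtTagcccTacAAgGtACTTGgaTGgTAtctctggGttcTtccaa
Cyp4a12a: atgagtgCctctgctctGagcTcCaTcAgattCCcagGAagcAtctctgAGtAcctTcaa
Cyp4a12b: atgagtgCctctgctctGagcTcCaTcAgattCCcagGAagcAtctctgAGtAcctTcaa
Cyp4a31 differed from Cyp4a10 at 3 of these 60 bases, Cyp4a14 at 24, and Cyp4a12a and Cyp4a12b each at 15. Over the whole coding sequence, 96.6% of aligned bases were the same in Cyp4a10 and Cyp4a31 and 98.5% in Cyp4a12a and Cyp4a12b. Cyp4a14 matched Cyp4a10 at 75.4%. Of all 50-base stretches in the transcripts of a gene, 29.8% for Cyp4a10, 20.6% for Cyp4a31, 48.9% for Cyp4a12a and 49.4% for Cyp4a12b also occurred in a transcript of another gene, against 0.235% for Cyp4a14. How the counting treated reads that match several genes is not given in the sources used here, so the split between Cyp4a10 and Cyp4a31, and between Cyp4a12a and Cyp4a12b, is uncertain. The 50-base matches of Cyp4a10 and Cyp4a31 were most often with Cyp4a32, which itself had 10 counts over the 8 libraries.

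The abundant Cyp4a genes and Cyp2e1 were far lower in the knockout kidneys, while the Cyp4f13 and Cyp4v3 transcripts stood at similar levels in both groups. Of the 10 members, 7 had enough counts for the edgeR test. Of these 7, 3 were called lower at an adjusted p under 0.05, Cyp4a10, Cyp4a31 and Cyp2e1, and 0 were called higher. At an unadjusted p under 0.05 edgeR gave 4 lower and 0 higher, and DESeq2 and limma-voom with sample weights each called 4 lower and 0 higher. Over all 18485 genes tested, 14.9% were called, 8.27% lower and 6.61% higher. Of the same genes, 6489 had an unadjusted edgeR p under 0.05. DESeq2 called 4506 of them, 2509 lower, and limma-voom with sample weights called 8302, 4241 lower. Cyp4a10, Cyp4a14 and Cyp2e1 reached the count filter (0.412 CPM) in 4 controls and 2 knockouts and Cyp4a31 in 4 controls and 3 knockouts, so these genes entered the test through their control level. In the same 7 genes the knockout libraries all lay below the controls for 3, against 9.58% of tested genes, and all above for 0, against 9.29%. The values are from bulk tissue, in which fewer cells of a type and less RNA per cell cannot be told apart.

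**Figure D1:**
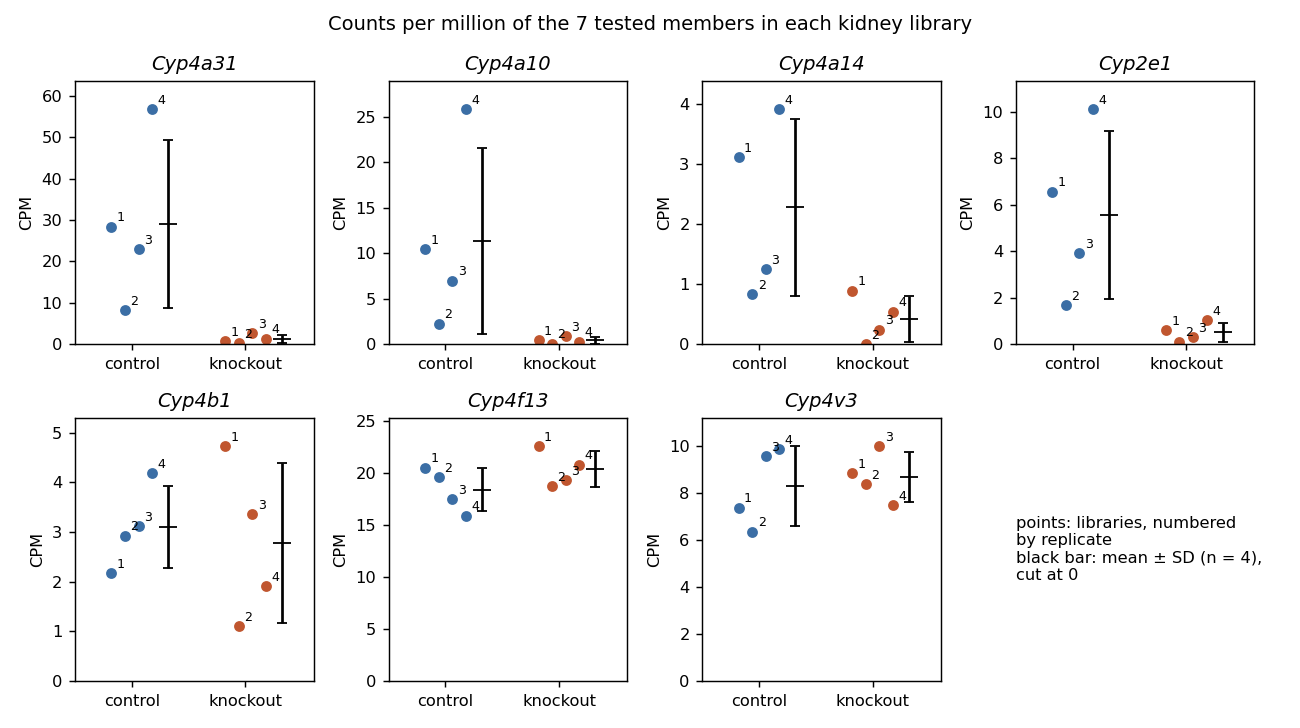
CPM of the 7 tested members in each library, on a linear axis from 0. Points are libraries numbered by replicate, and black bars give the mean ± SD of 4 libraries, cut at 0. Cyp4a31, Cyp4a10 and Cyp2e1 have no overlap between the groups, and Cyp4b1, Cyp4f13 and Cyp4v3 overlap.

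Cyp4a31 (ENSMUSG00000028712, chromosome 4, 115563649 to 115579015, plus strand), a fatty acid omega-hydroxylase of the kidney, was the most abundant Cyp4a transcript. Its levels in control replicates 1 to 4 were 28.4, 8.25, 22.9 and 56.8 CPM. In knockout replicates 1 to 4 they were 0.760, 0.251, 2.63 and 1.29 CPM. Every knockout lay below the lowest control, which was replicate 2, and the highest knockout was replicate 3. The group means were 29.1 ± 20.3 and 1.23 ± 1.02 CPM (SD, n = 4 each), and the fitted level was 22.6-fold lower in the knockout (log2 fold change −4.50, SE 0.71, edgeR adjusted p 0.0128). When each library was omitted in turn, it was no longer called without knockout replicate 4 (adjusted p 0.0544). That fit called 153 genes over all genes, against 2751 with all libraries.

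Cyp4a10 (ENSMUSG00000066072, chromosome 4, 115518264 to 115533649, plus strand) is the Cyp4a gene best known for its induction by PPAR alpha agonists. Its control levels were 10.4, 2.23, 6.98 and 25.8 CPM in replicates 1 to 4, and its knockout levels were 0.465, 0.0502, 0.865 and 0.288 CPM. As with Cyp4a31, the groups did not overlap, control replicate 4 was highest and control replicate 2 lowest. The means were 11.3 ± 10.2 and 0.417 ± 0.344 CPM (SD, n = 4 each). The fitted difference was 25.8-fold (log2 fold change −4.69, SE 0.84, edgeR adjusted p 0.0159). It was not called without knockout replicate 1 (adjusted p 0.0504) or without knockout replicate 4 (0.0617). Those fits called 567 and 153 genes over all genes, against 2751 with all libraries. Per exon length, Cyp4a31 exceeded Cyp4a10 in every library, by 1.85 to 3.12 times in controls and 1.38 to 4.2 times in knockouts, ratios of RPKM, which is CPM per kilobase of exon.

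Cyp4a14 (ENSMUSG00000028715, chromosome 4, 115486200 to 115496142, minus strand), another PPAR alpha responsive member, is the one whose counts are least open to paralogs among the Cyp4a genes. It measured 3.11, 0.835, 1.25 and 3.91 CPM in control replicates 1 to 4. In knockout replicates 1 to 4 it measured 0.887, 0, 0.242 and 0.540 CPM. Here the groups overlapped, because knockout replicate 1 lay above control replicate 2. The log2 fold change of −2.41 (SE 0.76) did not pass the test (edgeR adjusted p 0.0610). It did pass with DESeq2 (0.0135), with limma-voom with sample weights (0.0321), without control replicate 2 (0.0180) and among the 5 libraries with Y-linked transcripts (−4.24, adjusted p 0.0292). Those 5 libraries leave out control replicate 2 and knockout replicates 1 and 4. Cyp4a14 was called in 6 of the 17 alternatives, and in 1 of the 8 fits with 1 library left out. Its log2 fold change ranged from −4.24 to −2.03 over the 17. The largest edgeR adjusted p, 0.157, was without control replicate 4. That fit called 695 genes over all genes, against 2751 with all libraries. With Y-linked level in the model the edgeR adjusted p was 0.0962.

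Cyp4a12a (ENSMUSG00000066071, chromosome 4, 115299046 to 115332815, plus strand), the main 20-HETE synthase of adult male mouse kidney, was almost without reads. It had 1 count in control replicate 1, 1 count in knockout replicate 1 and 0 in the other 6 libraries, which include 3 controls. Control replicates 1, 3 and 4 carried Y-linked transcripts, and their Cyp4a12a counts were 1, 0 and 0. No difference between the genotypes was detectable at this depth.

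Cyp4a12b (ENSMUSG00000078597, chromosome 4, 115411624 to 115439034, plus strand), its near-identical neighbour, had 3, 1, 2 and 7 counts in control replicates 1 to 4. In the knockouts it had 1 count, in replicate 3. The knockout level, from pooled counts over unscaled library totals, was 7.49% of the control level. Its exact 95% counting interval was 0.176% to 49.9%, which leaves out the spread between samples. All 4 knockouts, at 0.0346 CPM or less, lay below the controls, at 0.0464 to 0.318 CPM, with counts of 0 and 1 on either side. An exact two-sided permutation test of the CPM values gave p = 0.0286, the smallest value that 70 assignments of the libraries allow, in a family of 3 such tests on the members under the count filter.

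Cyp2e1 (ENSMUSG00000025479, chromosome 7, 140763739 to 140774987, plus strand) stood at 6.55, 1.67, 3.91 and 10.1 CPM in control replicates 1 to 4. Its knockout levels were 0.591, 0.1, 0.311 and 1.04 CPM. The groups were apart, with control replicate 2 again the lowest control, but the highest knockout was replicate 4 and not replicate 3 as for Cyp4a31 and Cyp4a10. Means were 5.56 ± 3.62 and 0.512 ± 0.407 CPM (SD, n = 4 each), a fitted 10.5-fold lower level (log2 fold change −3.39, SE 0.68, edgeR adjusted p 0.0194). This call was the least stable of the 3. It was lost without control replicate 1 (adjusted p 0.0559), control replicate 3 (0.0516), knockout replicate 1 (0.0566), knockout replicate 2 (0.0506) or knockout replicate 4 (0.0530). These fits called 153 to 596 genes over all genes, against 2751 with all libraries. Without knockout replicate 4 the Cyp2e1 log2 fold change was −3.99. Its unadjusted edgeR p was then 0.000677, against 0.000691 with all libraries. Among the libraries with Y-linked transcripts the log2 fold change was −4.91 (adjusted p 0.0157). Those libraries leave out control replicate 2 and knockout replicates 1 and 4.

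The sequence before the start site is shown for Cyp2e1, the member called lower for which a RefSeq window was used, and for Cyp4f13, the member with the highest RPKM in the knockout kidneys. RefSeq windows on GRCm38.p6 were used for 5 of the 10 members, Cyp2e1, Cyp4b1, Cyp4f13, Cyp4f14 and Cyp4v3. Both sequences run 5′ to 3′ over the 250 bases before the RefSeq start site. That site is at 140763819 for Cyp2e1, 80 bases inside the gene as given by GENCODE above, and at 32947361 for Cyp4f13, 41 bases inside. The sequences are shown with capitals marking TATAAA, the core of the TATA box.
Cyp2e1, chr7:140763569-140763818, plus strand: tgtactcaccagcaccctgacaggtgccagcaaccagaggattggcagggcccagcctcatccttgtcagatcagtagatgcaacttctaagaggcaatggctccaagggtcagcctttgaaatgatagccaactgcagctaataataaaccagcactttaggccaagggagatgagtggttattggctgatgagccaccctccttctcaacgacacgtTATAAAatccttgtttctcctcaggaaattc
Cyp4f13, chr17:32947362-32947611, minus strand: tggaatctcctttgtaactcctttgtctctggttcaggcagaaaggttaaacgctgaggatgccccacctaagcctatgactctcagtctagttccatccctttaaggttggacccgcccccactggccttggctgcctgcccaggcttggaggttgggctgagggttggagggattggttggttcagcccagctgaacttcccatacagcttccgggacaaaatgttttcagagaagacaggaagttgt
In Cyp2e1, TATAAA began 31 bases before the RefSeq start site, which lies inside the gene by the GENCODE start. Searched on both strands, 12.4% of 32851 windows of the same length held TATAAA. It was not found in the Cyp4f13, Cyp4b1, Cyp4v3 or Cyp4f14 windows. The direct repeat of PPAR alpha and HNF4 (AGGTCA, then 1 base of any kind, then AGGTCA, up to 2 mismatches, both strands) was present in 3.24% of windows and in none of these 5 genes. A match is a description of the letters and not evidence of binding.

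Cyp4b1 (ENSMUSG00000028713, chromosome 4, 115624725 to 115647723, minus strand), an enzyme that acts on medium-chain fatty acids and on protoxins, lies at the end of the Cyp4a cluster. Control replicates 1 to 4 had 2.17, 2.92, 3.11 and 4.18 CPM. Knockout replicates 1 to 4 had 4.73, 1.10, 3.36 and 1.91 CPM. The knockouts enclosed the whole range of the controls. The log2 fold change was −0.15 (SE 0.41, edgeR adjusted p 0.812), and its sign turned without control replicate 4 (0.02), without knockout replicate 2 (0.10) and without knockout replicate 4 (0.01). Its spread was 57.8% of the mean in the knockouts and 26.8% in the controls.

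Cyp4f13 (ENSMUSG00000024055, chromosome 17, 32924688 to 32947402, minus strand) belongs to the Cyp4f group, which hydroxylates leukotrienes and very-long-chain fatty acids. It measured 20.5, 19.6, 17.5 and 15.9 CPM in control replicates 1 to 4 and 22.6, 18.7, 19.3 and 20.8 CPM in the knockouts. The difference was not called (log2 fold change 0.15, SE 0.11, edgeR adjusted p 0.359). Cyp4v3 (ENSMUSG00000079057, chromosome 8, 45304944 to 45333216, minus strand), whose human counterpart is mutated in Bietti crystalline dystrophy of the retina, had 7.37, 6.35, 9.56 and 9.86 CPM in controls. Its knockout levels, 8.83, 8.38, 10 and 7.48 CPM, lay almost within that range (log2 fold change 0.07, SE 0.17, edgeR adjusted p 0.807). Both genes varied by no more than 1.55-fold among the controls, where Cyp4a10 varied 11.6-fold, Cyp4a31 6.88-fold and Cyp2e1 6.04-fold. The sign of the Cyp4v3 difference depended on the fit, at −0.087 with limma-voom with sample weights, −0.044 without control replicate 2 and −0.12 without control replicate 2 and knockout replicate 3.

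Cyp4f14 (ENSMUSG00000024292, chromosome 17, 32905071 to 32917342, minus strand), a leukotriene B4 hydroxylase best known from liver, had 0, 1, 0 and 1 counts in control replicates 1 to 4. In knockout replicates 1 to 4 it had 2, 1, 1 and 3 counts. The ratio of knockout to control was 3.41, with an exact 95% counting interval of 0.649 to 33.6. That interval, too, leaves out the spread between samples. The groups overlapped (p = 0.114, exact permutation test, two-sided).

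Compared per exon length, the order of the members differed between the groups. In controls Cyp4a31 was highest (11.6 ± 8.10 RPKM, SD, n = 4), followed by Cyp4f13 (5.52 ± 0.625 RPKM), Cyp4a10 (5.37 ± 4.83 RPKM), Cyp2e1 (2.58 ± 1.68 RPKM), Cyp4v3 (2.18 ± 0.447 RPKM), Cyp4b1 (1.37 ± 0.368 RPKM) and Cyp4a14 (0.875 ± 0.566 RPKM). Each of these overlapped the next in its range over the 4 controls. Cyp4a12b, at 0.0593 ± 0.0507 RPKM, lay below the range of Cyp4a14. The knockout order began with Cyp4f13 (6.11 ± 0.518 RPKM), whose range lay above that of Cyp4v3 (2.28 ± 0.275 RPKM). Next came Cyp4b1 (1.23 ± 0.710 RPKM), Cyp4a31 (0.492 ± 0.408 RPKM), Cyp2e1 (0.237 ± 0.189 RPKM), Cyp4a10 (0.198 ± 0.163 RPKM) and Cyp4a14 (0.160 ± 0.147 RPKM), each overlapping the next, as did Cyp4v3 and Cyp4b1. Cyp4f14 at 0.0288 RPKM, and Cyp4a12a and Cyp4a12b at 0.00436 and 0.00361 RPKM, were last in knockouts. In controls, the last were Cyp4f14 and Cyp4a12a, at 0.00954 and 0.00423 RPKM.

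The make-up of this transcript pool therefore differed by library. The 5 Cyp4a genes gave 59.1%, 32.7%, 54.2% and 72.4% of the members' summed RPKM in control replicates 1 to 4. In knockout replicates 1 to 4 they gave 7.12%, 1.46%, 13.5% and 8.24%. The 2 Cyp4f genes gave 9.52% to 41.2% in controls and 50% to 66.4% in knockouts. In summed level, the Cyp4a genes ranged from 4.69 to 36.5 RPKM in controls and from 0.124 to 1.57 RPKM in knockouts, whereas the Cyp4f genes ranged from 4.80 to 6.16 and from 5.64 to 6.82 RPKM.

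**Figure D2:**
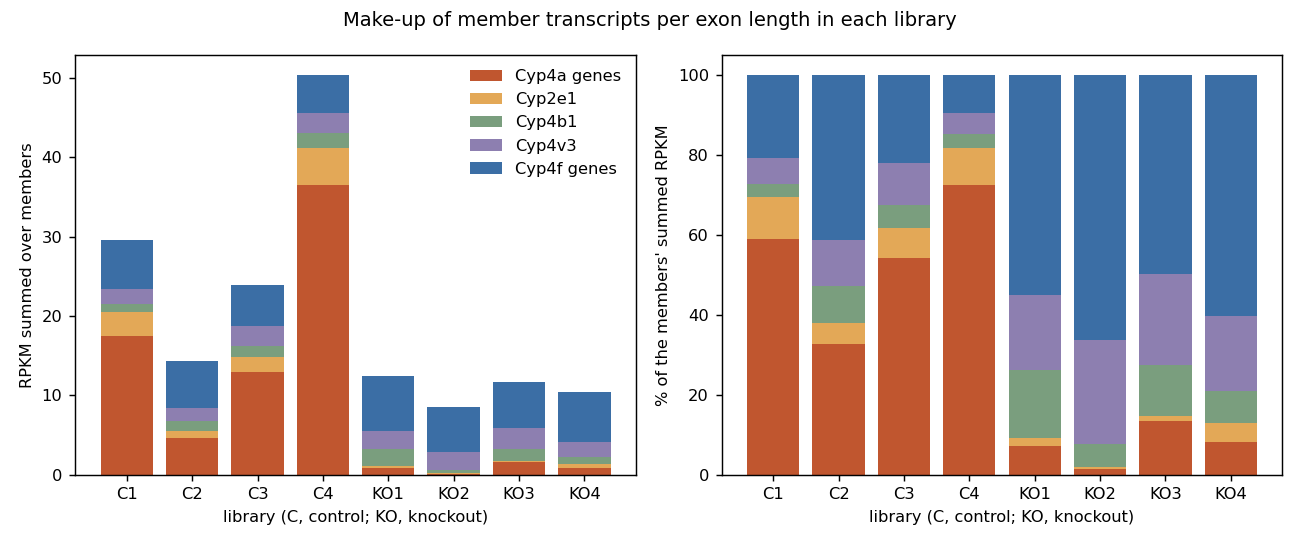
Stacked bars of RPKM summed over the members in each library (left) and as a percentage of that sum (right), split into the 5 Cyp4a genes, Cyp2e1, Cyp4b1, Cyp4v3 and the 2 Cyp4f genes. The Cyp4a part is 32.7% to 72.4% in the controls and 1.46% to 13.5% in the knockouts.

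Proximal tubule markers moved with these genes. The 20 markers summed to 2310, 753, 1710 and 3150 CPM in control replicates 1 to 4 and to 224, 96.8, 507 and 262 CPM in knockout replicates 1 to 4, the same order of libraries as for Cyp4a31 in the controls. Set against that sum, Cyp4a31 was 1.23%, 1.10%, 1.34% and 1.80% in the controls and 0.340%, 0.259%, 0.519% and 0.495% in the knockouts. Cyp4a10 was 0.296% to 0.818% of it in controls and 0.0519% to 0.208% in knockouts. Cyp4a31 and Cyp4a10 were both lower against this sum, without overlap between the groups. Cyp4a14 was 0.0732% to 0.134% of it in controls and 0.397%, 0%, 0.0478% and 0.206% in knockout replicates 1 to 4. For Cyp4a14 the groups overlapped, with knockout replicates 1 and 4 above every control. The sum is weighted to abundant markers such as Aqp1, Lrp2, Slc34a1, Ass1 and Ggt1, with log2 fold changes of −1.99, −2.24, −3.04, −3.08 and −2.88. The median over the 19 tested markers was −3.08. Miox (−5.86), Slc7a13 (−4.96) and Slc22a6 (−4.51) had changes at least as large as that of Cyp4a31. Cyp2e1 was 0.222% to 0.320% of the marker sum in controls and 0.264%, 0.104%, 0.0615% and 0.399% in knockout replicates 1 to 4, and here the groups overlapped. These shares were computed after the levels were known and carry no test, and the part of tubule content in the results was not tested.

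Several liver markers, like Cyp2e1 and Cyp4a14, were higher in knockout replicates 1 and 4 than in the other knockouts. Albumin (Alb) stood at 89.3 and 82.4 CPM in knockout replicates 1 and 4, against 1.71 to 7.09 CPM in the other 6 libraries. The liver enzyme Cyp3a11 was at 3.51 and 3.17 CPM in these 2 knockouts and at 0.283 CPM or less elsewhere, and Cyp7a1, of bile acid synthesis, was at 0.549 and 0.612 CPM and at 0 elsewhere. The 12 liver markers summed to 227 and 195 CPM in knockout replicates 1 and 4, 22.0 and 24.6 CPM in knockout replicates 2 and 3, and 34.3 to 113 CPM in controls. Ttr, the transthyretin gene, went the other way and made up much of the control sums. It was at 59.5, 10.2, 36.4 and 81.4 CPM in control replicates 1 to 4 and 3.8, 0.602, 4.84 and 4.35 CPM in the knockouts (log2 fold change −3.76, edgeR adjusted p 0.0168). Serpina1a, at 2.41 and 3.06 CPM in knockout replicates 1 and 4, lay within the control range of 1.68 to 5.91 CPM. Cyp1a2 had 1 count over the 8 libraries, in knockout replicate 3. Of the 8 liver markers tested, 6 had a higher and 2 a lower fitted level in the knockouts. The part of liver transcripts in the levels of Cyp2e1, Cyp4a14 and Cyp4f14, which are all expressed in liver, was not tested. In knockout replicates 2 and 3, where Alb was at 1.71 and 2.35 CPM, Cyp2e1 was at 0.1 and 0.311 CPM, below the 0.591 and 1.04 CPM of replicates 1 and 4.

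**Figure D3:**
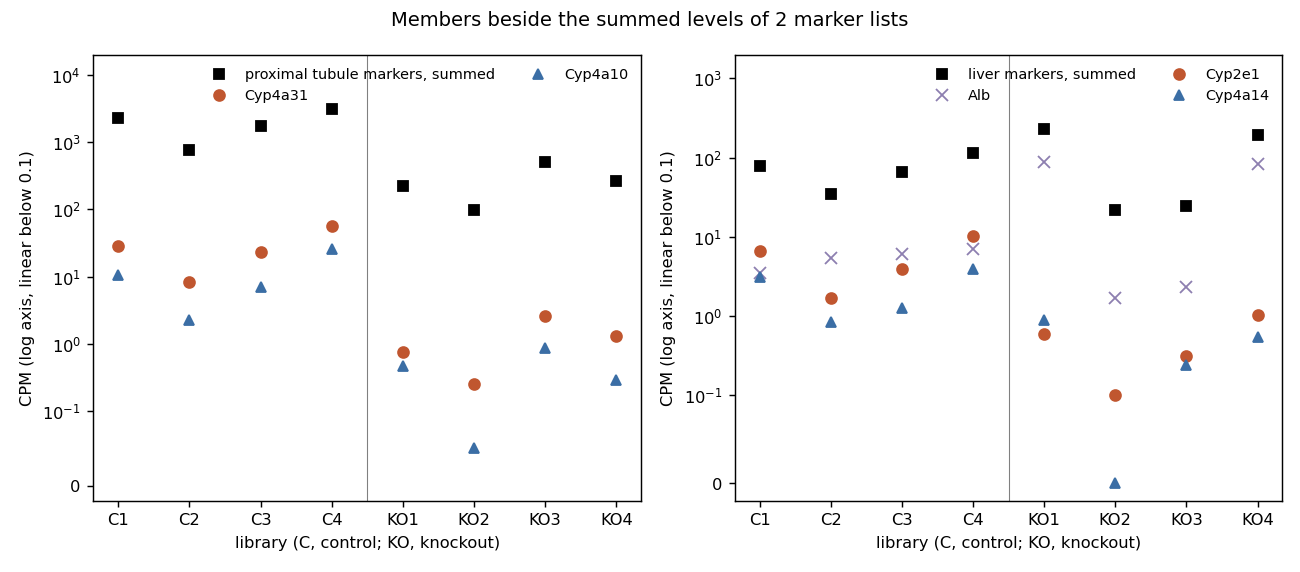
Levels in each library on a logarithmic CPM axis that is linear below 0.1. On the left, Cyp4a31 and Cyp4a10 lie beside the sum of 20 proximal tubule markers; on the right, Cyp2e1 and Cyp4a14 lie beside the sum of 12 liver markers and Alb, which is at 82.4 to 89.3 CPM in 2 knockouts.

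Sex-linked transcripts split both groups, so the effect was also computed within the 5 libraries with Y-linked transcripts, 3 controls and 2 knockouts. The knockouts left out, replicates 1 and 4, are also those with high adrenal and liver marker levels. Within the knockouts the 2 features cannot be told apart, in this fit or with Y-linked level in the model. Within these 5 libraries Cyp4a31 changed by −4.53 on the log2 scale (edgeR adjusted p 0.0216) and Cyp4a10 by −4.80 (0.0259), close to the values from all libraries. Cyp2e1 and Cyp4a14 moved further, to −4.91 and −4.24, from −3.39 and −2.41 with all libraries. The 3 libraries without Y-linked transcripts hold 1 control and allow no test. In them Cyp4a31 was at 8.25 CPM in the control and 0.760 and 1.29 CPM in the knockouts. Cyp4b1, at 2.92 CPM in that control and 4.73 and 1.91 CPM in those knockouts, showed no order. Adding Y-linked level to the model, log2 fold changes were −4.05 for Cyp4a31, −4.14 for Cyp4a10 and −3.34 for Cyp2e1 (edgeR adjusted p 0.0170, 0.0243 and 0.0410).

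Of 11 other Cyp4 genes, 4 were tested, and 2 were called, both higher in the knockout. Cyp4f17, of the same chromosome 17 group as Cyp4f13, went from 12.7 ± 1.33 to 18.8 ± 1.97 CPM (SD, n = 4 each; log2 fold change 0.57, SE 0.12, edgeR adjusted p 0.0211). Cyp4f16 went from 26.3 ± 1.34 to 32.2 ± 1.61 CPM (0.30, SE 0.07, adjusted p 0.0296). The median over the 4 was 0.04, and it was 0.0044 over all genes tested. Among the libraries with Y-linked transcripts neither was called, with log2 fold changes of 0.53 for Cyp4f17 (adjusted p 0.0860) and 0.36 for Cyp4f16 (0.0508).

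Among 18 regulators known to act on such genes, 4 were called lower and 0 higher. Among the called genes was Hnf4a, a nuclear receptor that maintains proximal tubule identity (115 ± 40.8 to 23.9 ± 14.1 CPM, log2 fold change −2.26, adjusted p 0.0336). Also lower were Ppara, the fatty acid sensor itself (4.24 ± 1.32 to 1.49 ± 0.863 CPM, −1.49, adjusted p 0.0473), and its coactivator Ppargc1a (−0.81, adjusted p 0.0394). The edgeR difference of Rxra, the partner of PPAR alpha, was −0.01 (SE 0.10, adjusted p 0.948), and this gene was singled out after its values were seen. The list's median was −0.27. Hnf4a is also one of the proximal tubule markers. Among the libraries with Y-linked transcripts 1 regulator was called lower and 2 higher, and limma-voom with sample weights called 8 lower and 2 higher. In the libraries with Y-linked transcripts the log2 fold changes were −2.73 for Hnf4a (adjusted p 0.0670), −1.64 for Ppara (0.0566) and −1.02 for Ppargc1a (0.0533), none of them called. In knockout replicates 1 to 4, Ppara stood at 2.20, 0.703, 2.28 and 0.791 CPM, and in controls at 4.06, 2.46, 5.45 and 5 CPM. The groups were separated by a narrow gap between control replicate 2 and knockout replicate 3.

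Of 32 known PPAR alpha target genes other than the Cyp4a genes, 29 were tested, 11 were called lower and 0 higher, with a median log2 fold change of −0.61. Those with the smallest adjusted p were Cpt1b (−2.32, adjusted p 0.0153), a carnitine palmitoyltransferase, the peroxisomal thioesterase Acot4 (−2.40, 0.0172), the thiolase Acaa1b (−2.42, 0.0196) and the bifunctional enzyme Ehhadh (−1.95, 0.0202). Knockouts lay below all controls for each of these 4 genes. Ehhadh is also counted among the genes around omega-hydroxylation.

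The reactions around omega-hydroxylation were covered by 22 genes, of which 21 were tested, 6 were called lower and 0 higher, with a median of −0.25. Slc27a2, which activates very-long-chain fatty acids, had the largest change, from 121 ± 63.0 to 7.83 ± 7.04 CPM (log2 fold change −3.93, SE 0.69, edgeR adjusted p 0.0154). Cyb5a, the cytochrome b5 that passes electrons to P450 enzymes, changed by −0.63 (adjusted p 0.0205), while Por, the reductase that all microsomal P450 enzymes need, had a difference of −0.07 (adjusted p 0.536) and was singled out after its values were seen. Ehhadh, of peroxisomal beta-oxidation, also fell (−1.95, adjusted p 0.0202). For Slc27a2, Cyb5a and Ehhadh, every knockout lay below every control. Slc27a2 is also one of the proximal tubule markers.

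Other enzymes of arachidonic acid were called in both directions, 5 lower and 3 higher of 20 tested, with a median of −0.29. Cyp2j13 (−4.77, adjusted p 0.00202) and Alox15 (−1.98, 0.00815) were lower, as was Cyp2j5 (−5.05, 0.0120). Alox5ap, the 5-lipoxygenase activating protein gene, was higher (0.74, 0.0110). Of 19 P450 genes of foreign compounds, 5 were tested and 1 was called, Cyp2d26, which went from 50.4 ± 25.7 to 3.46 ± 2.47 CPM (−3.83, 0.0110). The median of these 5 was 0.04.

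Kidney genes known to differ by sex in adults were called 5 times lower and 1 time higher of 10 tested, with a median of −0.09. Kap, an androgen-induced gene of the proximal tubule, changed by −7.50 (edgeR adjusted p 0.0108) and the male-biased transporter Slc7a13 by −4.96 (0.0111). The female-biased Slc7a12 also fell (−5.69, adjusted p 0.0120), as did Cyp2j13. Slc7a13 is also one of the proximal tubule markers.

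**Figure D4:**
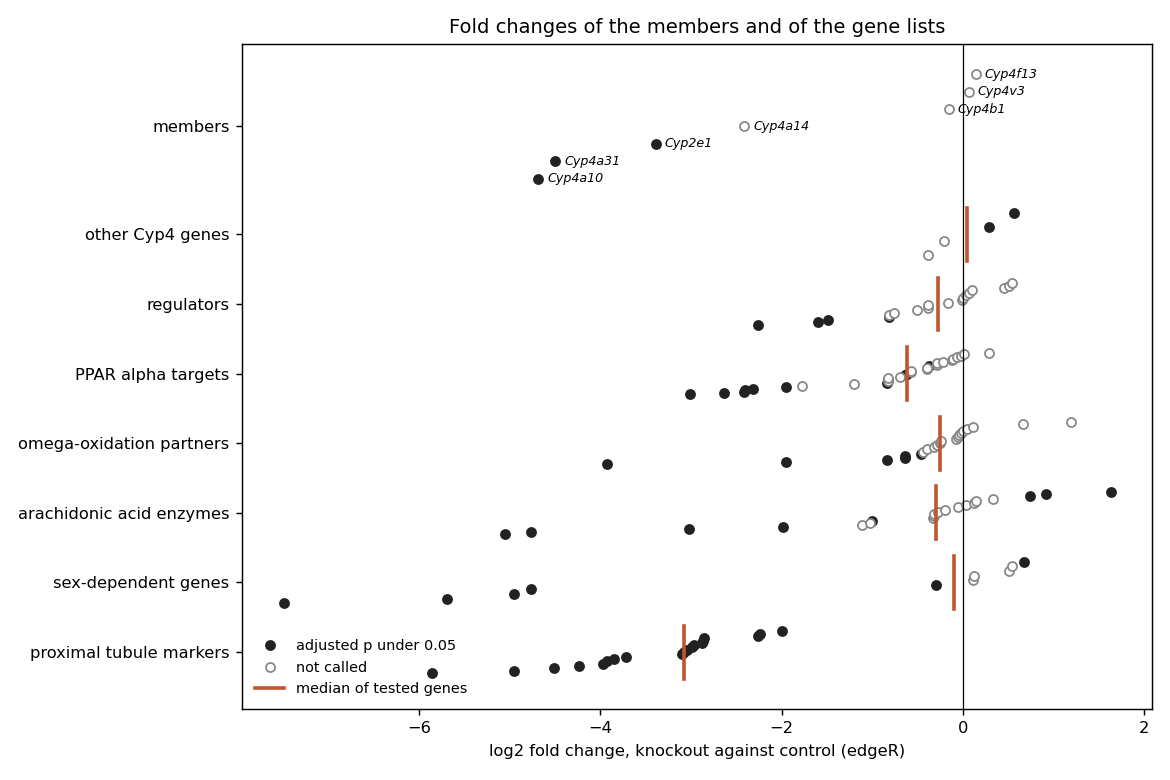
Log2 fold changes (knockout against control, edgeR) of the tested members and of the genes in 7 lists. Filled points have an adjusted p under 0.05, open points do not, and red bars are list medians, from −3.08 for proximal tubule markers to 0.04 for other Cyp4 genes.

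The genes whose pattern over the 8 libraries was nearest to each member were found by the root mean square difference of log2 CPM after centring each gene on its own mean, among 14259 genes. For Cyp4a31 these were Mettl7b (0.269), Slc27a2 (0.303) and Acsm1 (0.320), and for Cyp4a10 they were Slc3a1 (0.271), Ttc36 (0.362) and Slco1a6 (0.398). Cyp2e1 had Slc18a1 (0.281), F13b (0.298) and Etnppl (0.458), and Cyp4a14 had F13b (0.452), Slc18a1 (0.452) and Hao2 (0.558). The nearest to Cyp4b1 were P2ry14 (0.135), Steap1 (0.278) and Mapk15 (0.317). Cyp4f13 was nearest to Stx17 (0.0272), Rprd2 (0.0476) and Brd8 (0.0501), and Cyp4v3 to Hcls1 (0.0415), Adcy4 (0.0690) and Bcl9l (0.0818). The members themselves were left out of this search, so no member could be named as nearest to another. Among the genes searched, Cyp2e1 and Cyp4a14 shared 2 of their 3 nearest, and Cyp4a31 and Cyp4a10 shared 0 of 3. These counts do not show which members were most alike.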

How the data were processed

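The deposited values are raw counts per gene from poly(A) RNA of frozen mouse kidney, 4 control and 4 knockout libraries. Per the submitters' processing notes the authors used Trimmomatic 0.36, STAR 2.5.2b, featureCounts of Subread 1.5.2, DESeq2 and build GRCm38. Strand and multi-mapping settings are not given in the sources used here. Of 49315 gene IDs, 48970 matched a symbol. Counts were tested with edgeR 4.0.16 in R 4.3.3 (TMM, default expression filter, quasi-likelihood test, Benjamini-Hochberg adjustment over 18485 genes, threshold 0.05). The script was tested on simulated data. CPM are TMM-scaled, RPKM divide them by exon length, and ± is the SD. Members under the filter had an exact permutation test and, above 3 counts in a group, exact 95% counting intervals. These intervals pool the counts of a group over its unscaled library totals and leave out the spread between samples.

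Alternatives used DESeq2 1.42.0, limma 3.58.1 (voom with sample weights), other filters and scaling, subsets of libraries and each library left out. The members and gene lists were chosen with earlier results of these data known. The genes named were the members, Kdm1a, up to 4 called genes of each list with the smallest adjusted p, and the 3 nearest patterns of each tested member. Some genes under this rule are not reported here. Of 128 list genes 1 had no match. Other marker lists gave, as called lower and higher of those tested, 5 and 0 of 7 for thick ascending limb, 1 and 0 of 9 for endothelium, 0 and 3 of 10 for fibroblasts and matrix, 1 and 2 of 9 for leukocytes, 1 and 2 of 8 for liver, and 0 and 0 for adrenal gland (10 tested), adipose tissue (3) and bladder and ureter lining (6).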

Additional observations from a re-analysis of the deposited data

Results flagged for a closer look

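In groups of 4 libraries, 64 sets of values of the members and named genes were examined for 1 library far from the other 3. The measure was the gap to its nearest neighbour over the whole range, flagged above Dixon's 95% critical value. For normally distributed values, chance alone gives about 1 in 20. Each Cyp4a12a value rested on 1 count, at 0.0410 CPM in control replicate 1 and 0.0422 CPM in knockout replicate 1. Cyp4a12b was at 0.0346 CPM in knockout replicate 3, also 1 count. In each of these sets the other 3 libraries had 0 counts. The measure is then always at its maximum, and the 1 in 20 does not apply. Alox15, a lipoxygenase gene, was at 4.03 CPM in control replicate 2, above the other controls. Kap was at 2.11 CPM in knockout replicate 3, above the other knockouts.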

How the results depend on the processing

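Counts of called genes depended on the fit. Over all genes, 2751 were called, against 4506 with DESeq2, 8302 with limma-voom with sample weights (both changed together), 7903 without control replicate 2 and knockout replicate 3, and 153 to 7084 with 1 library left out. The members called, 3, became 0 to 4 with 1 library left out. The edgeR count of 0, without knockout replicate 4, had 4 members at an unadjusted p under 0.05. Other Cyp4 genes called, 2, became 1 with no filter, 0 among libraries with Y-linked transcripts (edgeR, 4 at an unadjusted p under 0.05) and 0 to 2 with 1 library left out (2 unadjusted at each 0). With limma-voom, without control replicate 2 and knockout replicate 3, and over the fits with 1 library left out, the omega-oxidation list (6) had 11, 11 and 0 to 11. The PPAR alpha list (11) had 19, 21 and 0 to 22, the regulators (4) had 10, 9 and 0 to 8, the arachidonic acid list (8) had 13, 13 and 3 to 11, and the P450 genes of foreign compounds (1) had 3, 3 and 0 to 2. Without knockout replicate 4, where edgeR called 0 in 4 of these lists, 9, 16, 5 and 2 genes of the omega-oxidation, PPAR alpha, regulator and foreign compound lists had an unadjusted p under 0.05. The last list had 2 with DESeq2, the regulators had 1 with the Y-linked covariate, and the sex-dependent list (6) had 1 to 7 with 1 library left out. The cause was not tested. Cyp4b1 turned sign without control replicate 4 (0.02), knockout replicate 2 (0.10) or knockout replicate 4 (0.01), and Cyp4v3 with limma-voom (−0.087), without control replicate 2 (−0.044) and without control replicate 2 and knockout replicate 3 (−0.12). With 1 library left out, log2 fold changes ranged from −0.53 to 0.10 for Cyp4b1 and from −0.044 to 0.15 for Cyp4v3. They ranged over the 17 alternatives from −5.47 to −3.97 for Cyp4a31, −5.67 to −3.91 for Cyp4a10 and −4.91 to −2.95 for Cyp2e1.

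With the replicate number as a block, 4 members and 3229 genes were called, Cyp4a14 now among them (adjusted p 0.0153). Same-numbered libraries deviated from their group means with correlations of −0.108, 0.329, 0.228 and −0.059, so the numbers were not taken to pair the samples.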
